A study of Mus musculus with 24 samples.

Results

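The 10 genes described here encode the MHC class I molecule and the machinery that loads it: the heavy chains H2-K1 and H2-D1, the light chain B2m, the peptide transporter subunits Tap1 and Tap2, the bridging chaperone Tapbp, the immunoproteasome subunits Psmb8, Psmb9 and Psmb10, and the transcriptional regulator Nlrc5. They were chosen by name, with earlier results of these data known. The choice was made from the 24346 features left after RefSeq transcripts were reduced to 1 per gene. All 10 were found, and all 10 were among the 13356 features with enough reads to be tested. The libraries came from 3T3-L1 cells, a mouse preadipocyte line that becomes fat-storing adipocytes after hormonal induction. RNA was sequenced from 12 libraries, 3 biological replicates in each of 4 groups: cells with the genotype label Control and cells labelled LSD1 overexpression, each at day 0 (confluent and undifferentiated) and at day 7 of differentiation. LSD1, encoded by Kdm1a, removes methyl groups from histone H3. Both genotypes received the same mixture of insulin (10 µg/ml), dexamethasone (1 µM), rosiglitazone (10 µM) and isobutylmethylxanthine (500 µM), which was replaced at day 3 by medium with insulin. The labels do not say how LSD1 was expressed, whether the line is a clone, or whether replicates came from separate cultures, so p-values measure the spread between these libraries only. A further 6 ChIP-seq samples gave peak lists for LSD1 (1 per genotype label and day) and for the transcription factor Nrf1 (1 per day). The genotype of the Nrf1 day 7 sample is in doubt: its title names LSD1 cells and its genotype label is Control, as for day 0.

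MHC class I molecules are found on nearly all nucleated cells and show fragments of the cell's own proteins to cytotoxic T cells. Proteasomes cut those proteins, the TAP transporter moves the peptides into the endoplasmic reticulum, and tapasin (Tapbp) holds TAP next to an empty heavy chain and B2m until a peptide binds. Interferons raise most of these genes, partly through STAT and IRF factors and partly through Nlrc5, which is recruited to a composite promoter element shared by class I genes.

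Most of the genes lie close together in the mouse genome (GRCm38, the mm10 build of the files). 7 of the 10 are on chromosome 17, where Psmb9, Tap1, Psmb8 and Tap2 fill a stretch of 34223 bases at chr17:34182099-34216321. B2m is on chromosome 2, and Psmb10 and Nlrc5 are on chromosome 8. Tap1 and Psmb9 are transcribed away from each other from starts 226 bases apart. 4 promoters are shown because their genes are followed most closely below. They are those of the 2 heavy chains, of B2m, and of Tap1, whose upstream sequence is also that of Psmb9. Each is the 250 bases before the RefSeq start (GRCm38.p6), at chr17:34000334-34000583 on the minus strand for H2-K1, chr17:35262844-35263093 on the plus strand for H2-D1, chr2:122147437-122147686 on the plus strand for B2m and chr17:34187306-34187555 on the plus strand for Tap1. Capitals mark matches, on either strand, to 2 interferon-type motifs (GAAA, any 2 bases, GAAA; and GAA, any 2 bases, GAAA), to TGACG (the core of the X2 element) and to CCAAT.
H2-K1: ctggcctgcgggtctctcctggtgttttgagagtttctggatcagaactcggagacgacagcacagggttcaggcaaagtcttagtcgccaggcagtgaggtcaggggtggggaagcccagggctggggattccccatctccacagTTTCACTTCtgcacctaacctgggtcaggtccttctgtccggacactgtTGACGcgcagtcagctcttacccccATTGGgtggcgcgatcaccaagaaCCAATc
H2-D1: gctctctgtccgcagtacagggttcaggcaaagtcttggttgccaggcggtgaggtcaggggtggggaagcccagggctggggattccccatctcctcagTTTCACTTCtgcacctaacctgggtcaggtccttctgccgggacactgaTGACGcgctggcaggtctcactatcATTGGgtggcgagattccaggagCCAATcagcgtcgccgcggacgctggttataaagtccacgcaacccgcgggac
B2m: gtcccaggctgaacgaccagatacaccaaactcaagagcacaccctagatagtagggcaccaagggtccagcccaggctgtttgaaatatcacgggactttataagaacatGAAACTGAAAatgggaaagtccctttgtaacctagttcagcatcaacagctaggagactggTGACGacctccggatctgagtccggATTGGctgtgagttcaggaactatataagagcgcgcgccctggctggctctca
Tap1: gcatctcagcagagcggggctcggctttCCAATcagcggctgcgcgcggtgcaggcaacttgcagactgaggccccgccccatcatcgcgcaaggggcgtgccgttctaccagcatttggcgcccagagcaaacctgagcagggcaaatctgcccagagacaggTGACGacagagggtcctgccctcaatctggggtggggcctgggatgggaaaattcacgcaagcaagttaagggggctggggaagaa

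The 2 heavy chain promoters are alike: over the 254 bases that align without gaps, within windows of 300 bases that reach 50 bases past the start, 180 (70.9%) are identical. Both carry the shorter interferon-type motif on the opposite strand, at -104 in H2-K1 and at -150 in H2-D1, where positions count from the annotated start. B2m carries the longer one at -139. Among 32817 RefSeq promoters of the same length, 3.43% hold the longer motif and 7.52% the shorter. TGACG was found in 5 of the 8 genes with a promoter entry (B2m, H2-K1, H2-D1, Tap1 and Psmb9), against 20.8% of all promoters, and CCAAT in 6 of 8, against 37.4%. The windows of Tap1 and Psmb9 overlap, and their matches to TGACG and to CCAAT are the same sites in the genome, so each of these counts holds 1 site for both genes. The gamma-activated motif (TTC, any 3 bases, GAA) was found in Psmb8 alone of the 8, against 8.29% of promoters. The loose kappa B motif (GGG, any 5 bases, CC) was in 5 of 8, against 50.8%, again with the same sites for Tap1 and Psmb9. Motifs were chosen after the sequences had been seen, both strands were searched, motifs may overlap, and a match is a description of letters, not of binding. Tap2 and Nlrc5 had no entry.

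Library totals were 27512273 to 37565527 counts. 1 library stood apart. LSD1-labelled day 0 replicate 1 correlated at r = 0.958 and 0.961 with the other 2 libraries of its group over log2 CPM (CPM, the depth-scaled count used for all levels), while those 2 correlated at 0.996. It was above the mean of those 2 for all 10 genes, from 1.41-fold for Nlrc5 and 1.43-fold for B2m to 3.64-fold for Psmb9 and 5.34-fold for Psmb8. Many results that use this group, though not all, are therefore also given without it. The Kdm1a check that follows is given with all libraries only. Kdm1a gave no clear check of the label: its level at day 0 was 83.1 ± 3.76 CPM in control libraries and 97.5 ± 7.47 CPM in labelled ones (SD, n = 3; edgeR adjusted p = 0.0969), and at day 7 it was 69.4 ± 4.50 against 54.7 ± 0.606 CPM, lower in the labelled libraries (adjusted p = 0.00751). Groups are therefore called labelled throughout. The summed level of 9 leukocyte and macrophage markers did not exceed 5.36 CPM in any library, and Adgre1, Tyrobp, Cd3e and Ncr1 were at 0 counts in all 4 groups. Adipocyte markers summed to 688 to 864 CPM in control at day 0 and 9775 to 11522 at day 7, and to 521 to 637 and 28899 to 34223 in labelled libraries. Preadipocyte and fibroblast markers summed to 44843 to 48242 CPM in control at day 0 and 12724 to 13616 at day 7, and to 20591 to 27351 and 1620 to 1736 in labelled libraries, so that labelled libraries were below control at both days. The part of either marker list in the results below was not tested. In bulk RNA, fewer cells expressing a gene and less RNA per cell cannot be told apart.

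Differentiation of control cells was accompanied by a rise of most of the 10 genes. Of the 10 genes, 8 rose from day 0 to day 7 and none fell, beside 48.3% of all tested genes that changed (23.7% rose and 24.6% fell). The median log2 fold change was 1.20 over the 10 genes and -0.01 over all tested genes. In labelled cells 6 fell over the same interval and none rose, beside 69.8% of all tested genes changed (32.6% rose and 37.2% fell), with a median of -1.03 against -0.07. Without labelled day 0 replicate 1, 3 rose and 5 fell (background 76.2%), with a median of -0.29. Compared at day 0, 6 of 10 were higher in labelled than in control libraries (background 25.8%, with 12.8% higher and 13% lower), with a median of 1.02 against 0.00. Compared at day 7, 7 were lower and 1 was higher (background 63.6%, with 33.4% lower and 30.2% higher), with a median of -1.04 against -0.05. These 4 comparisons share groups and are not independent of one another.

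Levels between genes can be set side by side only per length, as mean CPM per kb of transcript. In control at day 0 the order was B2m (1807.8), Tapbp (122), H2-D1 (121), H2-K1 (53.9), Psmb10 (24.7), Tap2 (8.79), Tap1 (7.32), Psmb9 (0.575), Psmb8 (0.542) and Nlrc5 (0.222). The libraries of Tapbp and H2-D1 overlapped, as did those of Psmb9 and Psmb8, so the order within these pairs is not settled by their spread, whereas those of Tap2 and Tap1 did not overlap. In control at day 7 H2-D1 (235) and H2-K1 (159) stood above Tapbp (97.4), and Nlrc5 (4.08) had come level with Psmb9 (3.98) and Psmb8 (3.36). In labelled cells at day 7 the heavy chains kept that place (217 and 137, against 58.1 for Tapbp), Psmb10 was at 34.2, and Tap2 (8.04) was above Tap1 (4.37).

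**Figure D1:**
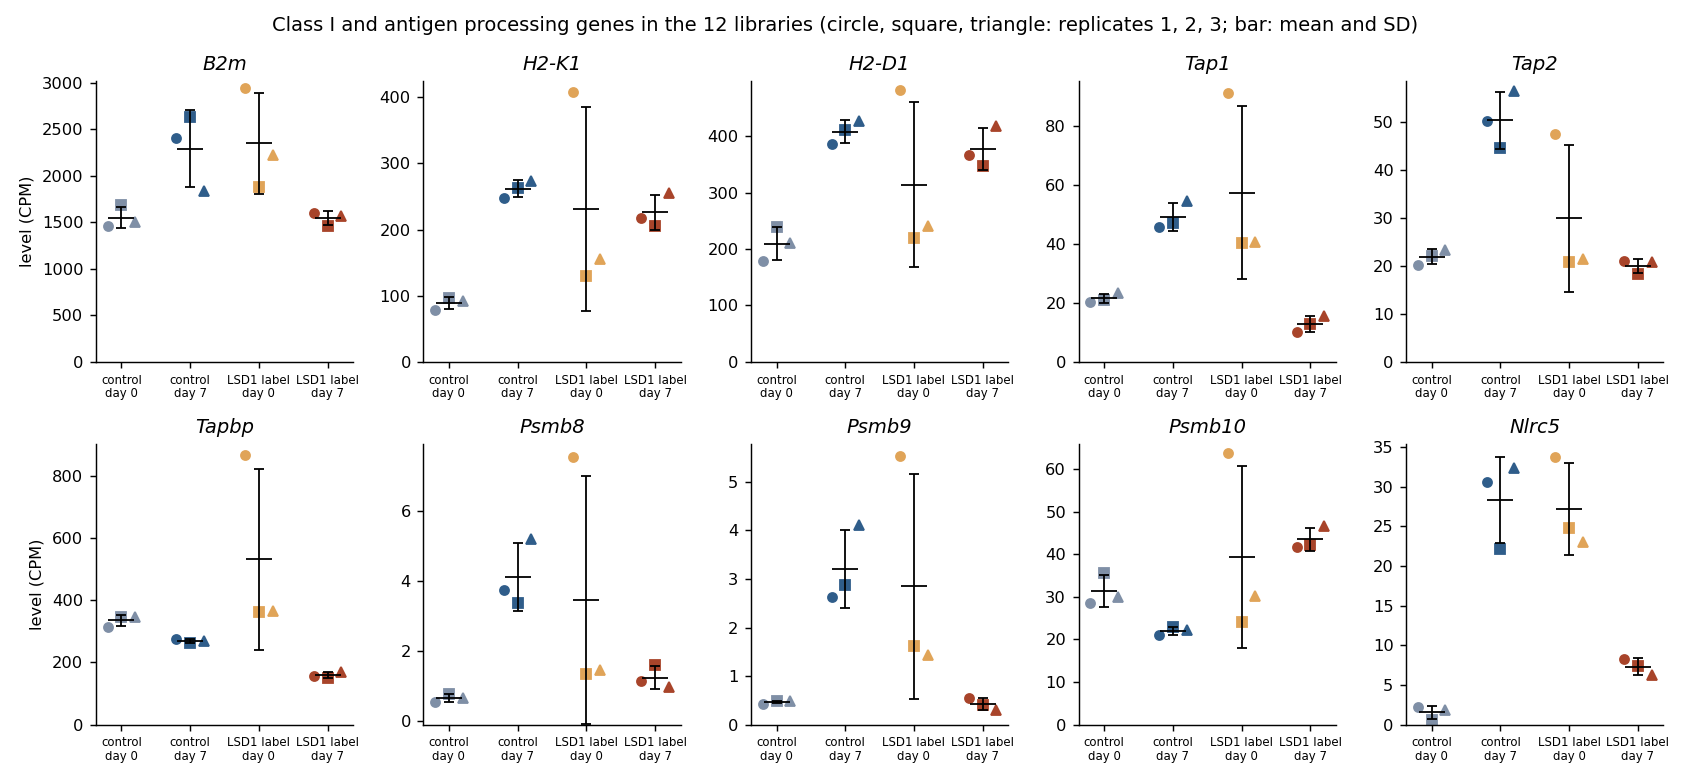
Level of each gene in CPM (reads scaled to library size) in each of the 12 libraries. The axis is linear and starts at 0, or just below 0 for Psmb8, where an SD bar passes 0. Points are replicates, and the bar gives the mean and SD of 3. Replicate 1 of the LSD1-labelled day 0 group is the highest of its group for all 10 genes, and Nlrc5 is near 0 only in control cells at day 0.

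Nlrc5, the class I transactivator, had the largest fold of the 10 genes in control cells. Its level was 2.20, 0.604 and 1.82 CPM in the control libraries at day 0, and 30.6, 22.2 and 32.3 CPM at day 7. Labelled libraries already stood at 33.8, 24.8 and 23 CPM at day 0, and at 8.33, 7.44 and 6.21 CPM at day 7. The groups did not overlap in any of the 4 comparisons: control at day 7 and labelled at day 0 were high, labelled at day 7 was intermediate, and control at day 0 was low. The rise in control cells was 18.3-fold (log2 4.19 ± 0.34 SE, edgeR adjusted p = 9.48e-07). At day 0 the labelled libraries were 17.5-fold above control (log2 4.13 ± 0.34, adjusted p = 5.52e-06), and 3.94 on the log2 scale without replicate 1. Over differentiation of labelled cells Nlrc5 fell by 1.89 ± 0.30 on the log2 scale (adjusted p = 9.59e-05), which left it 3.87-fold below control at day 7 (adjusted p = 9.75e-05). Without replicate 1 the change over labelled differentiation was -1.71.

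The light chain B2m, which every classical class I molecule needs to fold, was the most abundant of the 10 per length of transcript in every group. It was at 1464.5, 1684.4 and 1504.4 CPM in control at day 0 and at 2402.8, 2636.3 and 1837.5 CPM at day 7. Labelled libraries ran the other way, from 2942.9, 1876.8 and 2225.5 CPM at day 0 to 1602.4, 1462.2 and 1572.1 CPM at day 7. Labelled cells at day 7 were thus close to control cells at day 0, and no groups overlapped in any of the 4 comparisons. B2m rose 1.48-fold in control cells (log2 0.56 ± 0.17, edgeR adjusted p = 0.0144) and fell by 0.60 ± 0.17 on the log2 scale in labelled cells (adjusted p = 0.00602). It was higher in labelled libraries at day 0 (log2 0.60 ± 0.17, adjusted p = 0.02) and lower at day 7 (-0.57 ± 0.17, adjusted p = 0.00984). The calls in control cells and between labels were close to the threshold in the fit of all libraries. The rise in control was lost without control day 0 replicate 1 (adjusted p = 0.0557) or 3 (0.051) or control day 7 replicate 2 (0.0711). The day 0 difference was lost without control day 0 replicate 1 (0.0756) or 3 (0.0733), and the day 7 difference without control day 7 replicate 2 (0.0523). Without labelled day 0 replicate 1 each passed, with edgeR adjusted p of 0.000164 for the control rise, 0.01 at day 0 and 0.000102 at day 7. The change over labelled differentiation was then -0.41 (edgeR adjusted p = 0.00491).

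The heavy chains rose in control cells, as most of the 10 genes did. In the fit of all libraries they were the 2 genes with no call between the labels at day 7. Over labelled differentiation the heavy chains had no call either, but nor did Tap2 and Psmb10. H2-K1 was at 78.0, 95.9 and 92.4 CPM in control at day 0 and at 248.4, 263.6 and 273.3 CPM at day 7. In labelled libraries it was at 408.1, 129.5 and 154.9 CPM at day 0 and at 218.0, 204.8 and 255.3 CPM at day 7. H2-K1 rose 2.95-fold in control cells (log2 1.56 ± 0.33, edgeR adjusted p = 0.00172) and was higher in labelled than control libraries at day 0 (1.38 ± 0.33, adjusted p = 0.00811). At day 7 the 2 genotypes overlapped, with a log2 difference of -0.21 ± 0.32 (adjusted p = 0.579). Fitted on the 2 groups of each comparison alone, the day 0 difference of H2-K1 did not pass (1.39, adjusted p = 0.0669) and the day 7 difference did (-0.23, adjusted p = 0.0492). The change over labelled differentiation rested on 1 library: it was -0.03 ± 0.32 (adjusted p = 0.94) with all libraries and 0.67 ± 0.11 (adjusted p = 1.98e-05) without labelled day 0 replicate 1, which also brought the day 0 difference down to 0.68 (adjusted p = 4.11e-05).

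H2-D1 ran in parallel at a higher level. It was at 179.4, 238.5 and 211.3 CPM in control at day 0, 386.0, 410.1 and 426.9 CPM in control at day 7, 482.1, 219.2 and 241.1 CPM in labelled at day 0, and 367.1, 346.9 and 418.3 CPM in labelled at day 7. Its rise in control cells was 1.94-fold (log2 0.96 ± 0.24, adjusted p = 0.00533 by edgeR). Genotypes overlapped at both days, with log2 differences of 0.58 ± 0.24 at day 0 (adjusted p = 0.0923) and -0.11 ± 0.24 at day 7 (adjusted p = 0.699). Without labelled day 0 replicate 1, H2-D1 rose in labelled cells too (0.71 ± 0.11, adjusted p = 7.83e-06), whereas with it the change was 0.27 ± 0.24 (adjusted p = 0.334). Class I heavy chains are polymorphic and near-identical to one another, and the alleles of these cells may differ from the reference strain. How reads were shared between them was not tested, so the levels of both are uncertain.

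Both subunits of the TAP transporter rose in control cells, and Tap1 in particular was low in labelled cells at day 7. Tap1 was at 20.3, 21.1 and 23.3 CPM in control at day 0 and at 45.7, 47.4 and 54.5 CPM at day 7. It went from 91.4, 40.4 and 40.8 CPM to 10.2, 12.9 and 15.6 CPM in labelled libraries. No groups of Tap1 overlapped in any of the 4 comparisons, and labelled day 7 was the lowest of all groups. Tap1 rose 2.28-fold in control cells (log2 1.19 ± 0.27, edgeR adjusted p = 0.00318). It was higher in labelled libraries at day 0 (1.41 ± 0.27, adjusted p = 0.0026, and 0.91 without replicate 1). It fell by 2.16 ± 0.28 over labelled differentiation (adjusted p = 1.75e-05) and ended 3.82-fold below control at day 7 (adjusted p = 6.02e-05). Without labelled day 0 replicate 1 the change over labelled differentiation was -1.65.

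Tap2 was at 20.2, 22.1 and 23.3 CPM in control at day 0 and at 50.2, 44.5 and 56.4 CPM at day 7, a 2.30-fold rise (log2 1.20 ± 0.26, edgeR adjusted p = 0.00207). Labelled libraries were at 47.5, 20.7 and 21.4 CPM at day 0 and at 21.0, 18.4 and 20.7 CPM at day 7. Apart from day 0 replicate 1, labelled libraries thus lay in the range of 18.4 to 21.4 CPM at both days. No difference passed the test at day 0 (log2 0.45 ± 0.26, adjusted p = 0.224), where it was -0.06 without replicate 1 (adjusted p = 0.74). At day 7 Tap2 was 2.52-fold lower in labelled libraries (adjusted p = 0.000638).

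Tapbp, which encodes tapasin, did not take part in the control rise. It was at 315.7, 346.7 and 345.4 CPM in control at day 0 and at 274.3, 261.7 and 267.8 CPM at day 7, lower in every library without passing the test (log2 -0.33 ± 0.26, edgeR adjusted p = 0.319). Labelled libraries went from 868.6, 362.2 and 366.2 CPM to 157.7, 151.6 and 170.2 CPM, and fell by 1.74 ± 0.27 on the log2 scale (adjusted p = 6.99e-05; -1.19 without replicate 1). At day 7 Tapbp was lower in labelled libraries (log2 -0.75 ± 0.26, adjusted p = 0.0241), with no overlap. That call was lost when any 1 of 5 day 7 libraries was left out (all but control replicate 2), with adjusted p of 0.0506 to 0.0657. The call was kept without labelled day 0 replicate 1, a library of neither day 7 group (-0.75 ± 0.08, edgeR adjusted p = 2.93e-08). Without labelled day 0 replicate 1 the control difference passed (-0.33 ± 0.08, adjusted p = 0.00104), as it did in a fit of the 2 control groups alone (-0.29, adjusted p = 0.00155).

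**Figure D2:**
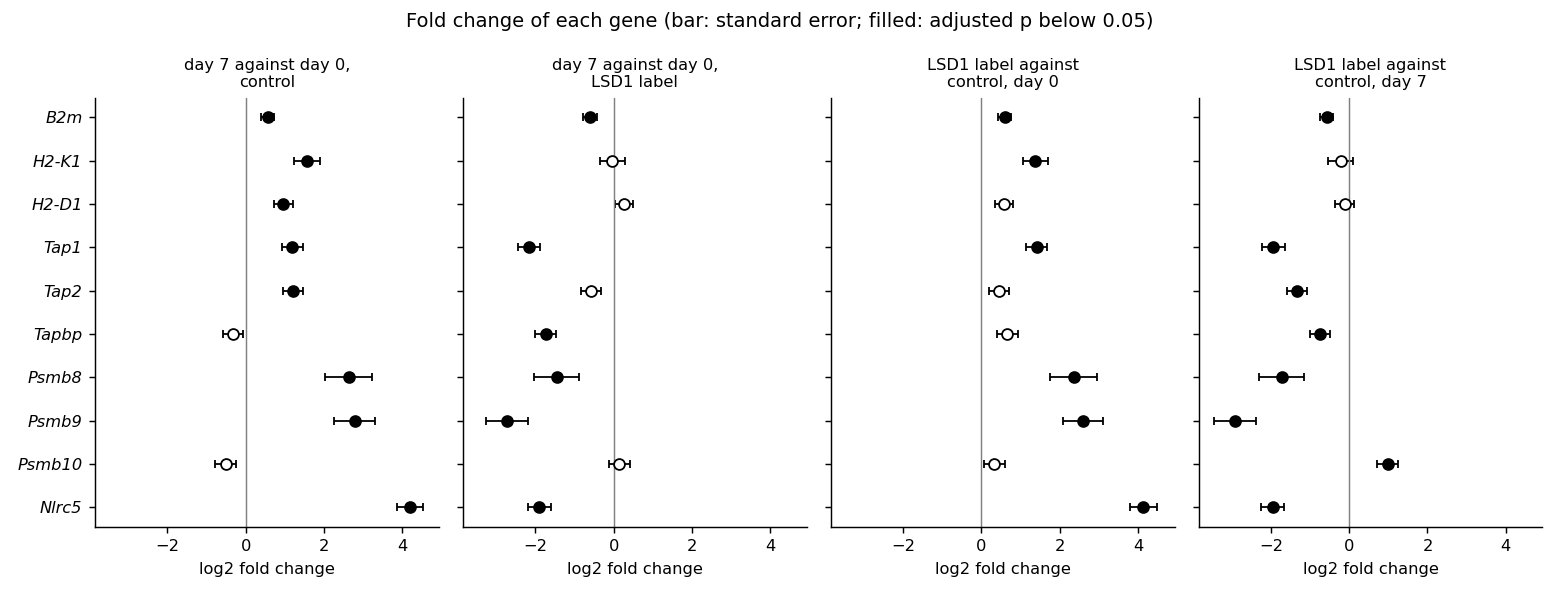
Log2 fold change of each gene in the 4 comparisons, with its standard error. Filled points have an adjusted p below 0.05. Nlrc5, Psmb8 and Psmb9 lie farthest from 0 in control differentiation (4.19, 2.62 and 2.78), while Psmb10 is the 1 gene above 0 with a call at day 7 between the labels.

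The 3 immunoproteasome subunits replace the catalytic subunits Psmb5, Psmb6 and Psmb7 of the standard proteasome, and here they did not move as a set. Psmb8 and Psmb9 were rare, with 14 to 184 and 6 to 135 reads per library. Psmb8 was at 0.550, 0.765 and 0.674 CPM in control at day 0 and at 3.74, 3.38 and 5.20 CPM at day 7, and Psmb9 at 0.432, 0.483 and 0.476 CPM and then at 2.63, 2.87 and 4.12 CPM. Neither pair of groups overlapped. Psmb8 rose 6.17-fold (log2 2.62 ± 0.60, edgeR adjusted p = 0.00308) and Psmb9 6.86-fold (2.78 ± 0.51, adjusted p = 0.000736).

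In labelled libraries Psmb8 was at 7.53, 1.36 and 1.46 CPM at day 0 and at 1.16, 1.60 and 0.983 CPM at day 7, and Psmb9 went from 5.53, 1.61 and 1.42 CPM to 0.552, 0.413 and 0.311 CPM. For Psmb8 the 2 days overlapped. The fall of Psmb8 (log2 -1.45 ± 0.57, edgeR adjusted p = 0.0376) was lost without labelled day 0 replicate 1 (-0.17, adjusted p = 0.641), and also without labelled day 7 replicate 1 (adjusted p = 0.097), 2 (0.0502) or 3 (0.115). Psmb9 fell by 2.73 ± 0.54 (adjusted p = 0.000559), with -1.83 without labelled day 0 replicate 1. Both were higher in labelled libraries at day 0 (log2 2.36 ± 0.60 for Psmb8 and 2.60 ± 0.51 for Psmb9, 1.08 and 1.70 without replicate 1), although Psmb8 did not pass in a fit of those 2 groups alone (adjusted p = 0.0743). At day 7 Psmb9 was 7.50-fold lower (adjusted p = 0.000425) and Psmb8 3.29-fold lower (adjusted p = 0.0194). The Psmb8 call at day 7 was lost without control day 7 replicate 3 (adjusted p = 0.0645) or labelled day 7 replicate 1 (0.0601) or 3 (0.072). It was kept without labelled day 0 replicate 1, a library of neither day 7 group (-1.72, edgeR adjusted p = 1.25e-05).

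Psmb10, outside the chromosome 17 cluster, differed from the other two. It was at 28.6, 35.6 and 30.0 CPM in control at day 0 and at 21.0, 22.9 and 22.1 CPM at day 7, lower in every library without passing the test (log2 -0.51 ± 0.27, edgeR adjusted p = 0.136; adjusted p = 0.000477 without labelled day 0 replicate 1, and 0.000865 in a fit of the 2 control groups alone). Labelled libraries were at 63.7, 24.1 and 30.3 CPM at day 0 and at 41.7, 42.1 and 46.6 CPM at day 7. It was the 1 gene of the 10 that was higher in labelled libraries at day 7 (1.98-fold, log2 0.98 ± 0.27, adjusted p = 0.00686), with no overlap. Its change over labelled differentiation was 0.15 ± 0.27 (adjusted p = 0.641), and 0.68 ± 0.13 without replicate 1 (adjusted p = 5.19e-05).

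The share of each immunoproteasome subunit in its catalytic pair, from CPM per kb of transcript, puts these levels beside those of the standard subunits. Psmb8 made up 2.08% ± 0.111 (SD, n = 3) of Psmb8 plus Psmb5 in control at day 0, 8.46% ± 1.31 in control at day 7 and 1.49% ± 0.441 in labelled at day 7. In labelled libraries at day 0 it was 15.0% in replicate 1 and 3.97% and 3.28% in the others. Psmb9 made up 0.576% ± 0.0603 of Psmb9 plus Psmb6 in control at day 0, 4.25% ± 0.668 in control at day 7 and 0.377% ± 0.128 in labelled at day 7. In labelled libraries at day 0 its share was 5.70% in replicate 1 and 2.22% and 1.68% in the others. Psmb10 held a larger share of Psmb10 plus Psmb7, at 16.2% ± 0.400, 9.99% ± 0.554, 19.3% ± 5.75 and 13.3% ± 1.37 in control at days 0 and 7 and labelled at days 0 and 7. Of the 12 comparisons of shares, 11 did not overlap, with an exact permutation p of 0.1 (two-sided, 0.109 adjusted over the 12), the smallest that 3 against 3 libraries can give. The exception was Psmb10 between labels at day 0 (exact permutation p = 0.6). The 12 comparisons reuse the same groups and are not independent, and no other gene pairs were compared, so the count has no background. The standard subunits moved too: at day 7 Psmb5, Psmb6 and Psmb7 were all higher in labelled libraries (log2 0.92, 0.67 and 0.52), so the shares there reflect both levels.

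**Figure D3:**
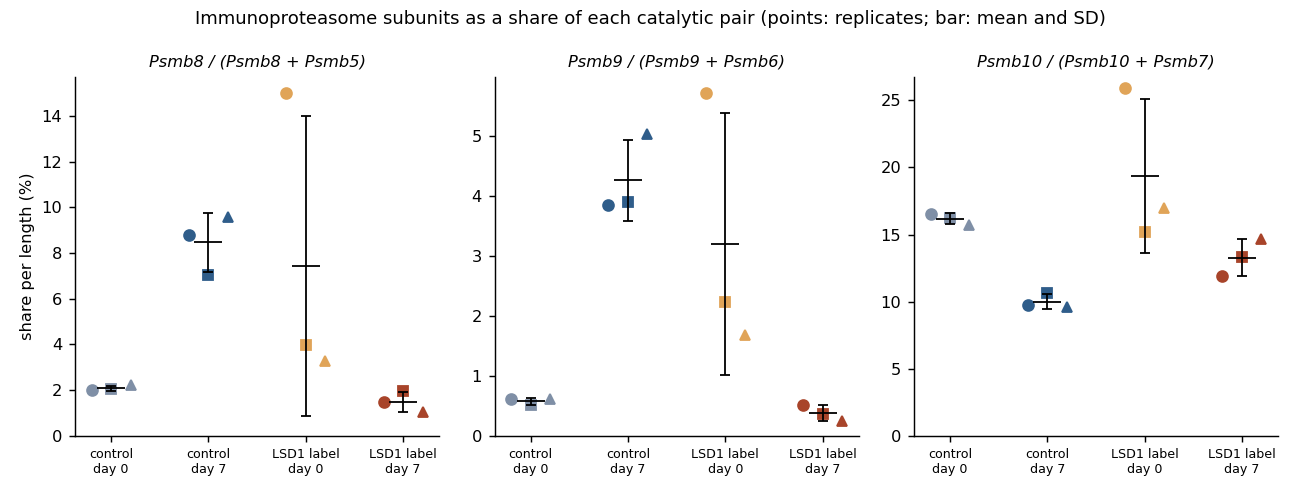
Share (%) of each immunoproteasome subunit in the sum of that subunit and its standard counterpart, per kb of transcript, in each library. Points are replicates and the bar gives the mean and SD of 3. Psmb8 and Psmb9 are highest in control cells at day 7 and in labelled day 0 replicate 1, and Psmb10 is lowest in control cells at day 7.

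The label difference was itself unlike at the 2 days. The interaction term, the label difference at day 7 minus that at day 0, passed the test in the negative direction for 8 of the 10 genes and in the positive direction for none (background 51.9%, with 28.1% negative and 23.9% positive), with a median of -1.68 against -0.06 for all genes. Nlrc5 (-6.09 ± 0.46, edgeR adjusted p = 4.19e-07), Psmb9 (-5.51 ± 0.75, adjusted p = 5.63e-05) and Psmb8 (-4.08 ± 0.83, adjusted p = 0.00126) had the largest values. H2-D1 (-0.69 ± 0.34, adjusted p = 0.101) and Psmb10 (0.66 ± 0.38, adjusted p = 0.166) did not pass. Without labelled day 0 replicate 1, 8 were again negative and Psmb10 was positive (1.19, adjusted p = 2.96e-06), at a background of 64.7%.

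Leaving out labelled day 0 replicate 1 lowered the log2 difference of all 10 genes in the day 0 comparison, and Tap2 and Psmb10, which did not pass, turned negative (-0.06 and -0.21). The 6 genes higher in labelled libraries were then again 6 (B2m 0.40, H2-K1 0.68, Tap1 0.91, Psmb8 1.08, Psmb9 1.70 and Nlrc5 3.94 on the log2 scale), at a background of 48.6%, and the median over the 10 genes was 0.54 in place of 1.02. Over labelled differentiation, the 3 genes that then rose were H2-K1, H2-D1 and Psmb10.

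**Figure D4:**
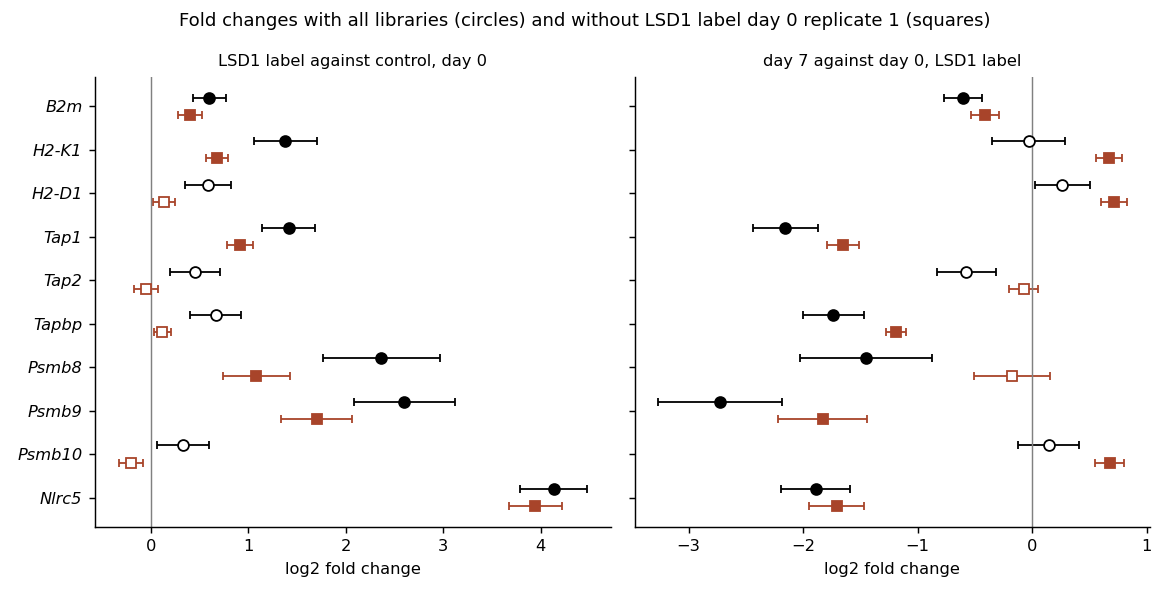
Log2 fold change of each gene with all libraries (circles) and without LSD1-labelled day 0 replicate 1 (squares), with standard errors; filled symbols have an adjusted p below 0.05. Nlrc5 moves from 4.13 to 3.94 at day 0, whereas H2-K1 moves from -0.03 to 0.67 over labelled differentiation.

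Other heavy chains of the family, which include non-classical molecules that present lipids, bacterial metabolites or formylated peptides, were read from a fixed list of 18, of which 13 were tested. In control cells 7 rose and none fell, with a median of 0.96, beside 23.7% and 24.6% of all tested genes. Among those that rose, H2-Q1 (2, 6 and 66 counts in control at day 7) and H2-Q7 (28, 11 and 238) were highest in replicate 3 by far. For H2-Q1 the 2 days overlapped. Both were picked out after their values were seen. At day 7, 5 of 13 were lower in labelled libraries and none was higher, with a median of -0.70. The share of lower genes was near the 33.4% over all tested genes, and 30.2% of those were higher. H2-M3, which presents formylated peptides, stood at 16.2 CPM in control cells against 1.32 CPM in labelled cells at day 7 (log2 -3.61, edgeR adjusted p = 1.49e-07). H2-Q4 was at 1.67 and 9.28 CPM in control and 7.80 and 1.28 CPM in labelled cells at days 0 and 7. H2-T24 was lower too at day 7 (-3.09, edgeR adjusted p = 0.00157), while H2-T23, the ligand of NKG2A receptors, was at 3.95 and 3.83 CPM (-0.05, adjusted p = 0.928).

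Around the transporter, a list of 12 peptide loading and trimming genes was read: 3 rose and 1 fell in control cells (background 48.3%), 3 rose and 4 fell over labelled differentiation (69.8%), 2 were lower and none higher in labelled libraries at day 0 (25.8%), and 1 was higher and 3 lower at day 7 (63.6%). The trimming enzyme Lap3 rose in both genotypes (log2 0.68 and 0.86). The loading complex chaperone Pdia3 was lower in labelled libraries at both days (log2 -0.44 and -0.96), Canx was lower at day 7 (-0.36), and Calr (-0.57 and -0.20) and the trimming enzyme Erap1 (0.03 and -0.20) did not pass at either day. Calr passed at day 0 once labelled day 0 replicate 1 was left out (-0.93, edgeR adjusted p = 7.2e-07). Without that library 1 gene of the 12 was higher and 5 were lower at day 0 (background 48.6%). Over labelled differentiation 4 then rose and 3 fell (background 76.2%). The proteasome activator subunits Psme1 and Psme2, which are interferon-inducible like Psmb8 and Psmb9, were higher in labelled libraries at day 0 (0.82 and 0.80) and also at day 7 (0.77 and 0.76). The day 0 values were 0.48 and 0.50 without labelled day 0 replicate 1, and both still passed. In the list of 4 activator and assembly genes, 3 were higher and none lower at day 7 (background 30.2% higher and 33.4% lower).

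Of 16 transcription factors known to act at class I promoters, 8 were higher and 1 lower in labelled libraries at day 0, beside 12.8% and 13% of all tested genes. At day 7, 3 were higher and 8 lower, beside 30.2% and 33.4%, so that the share called in either direction was near the background of 63.6%. Irf9 and Stat2, which act in the type I interferon response, were higher in labelled libraries at day 0 (log2 1.62 and 1.58). Without labelled day 0 replicate 1 these values were 1.40 and 1.31. Both genes fell over labelled differentiation (-3.49 and -3.24, and -3.26 and -2.98 without that library). They were lower than control at day 7 (-2.48 and -2.18). Irf2 was lower at day 7 (-0.68), Irf1 was higher (0.40), and Rfx5, a subunit of the complex that recruits Nlrc5, was lower (-1.21). Rela and Nfyc were higher (1.06 and 1.00). Ifng had 0 counts in all 12 libraries and Ifnb1 had 3 counts in all. Of 10 tested interferon ligands, receptors and signalling genes, 2 were higher and 6 lower in labelled libraries at day 7 (background 30.2% and 33.4%). The feedback inhibitors Usp18 (-3.73) and Socs1 (-3.36) were among the lower ones, while the receptor chain Ifngr1 was higher (1.28). At day 0, 1 of the 10 was higher and none lower (background 12.8% and 13%), and that gene was Usp18 (3.44). Without labelled day 0 replicate 1, 3 were higher and 1 lower at day 0 (background 48.6%), with Usp18 at 2.68. Without labelled day 0 replicate 1, a choice made after seeing the data and with 73.7% of all genes then called at day 7 and 48.6% at day 0, the day 7 counts of higher and lower genes were 4 and 10 for the transcription factors, 3 and 6 for the interferon list, 1 and 5 for the other heavy chains, 2 and 5 for peptide loading and trimming, and 3 and 1 for activator and assembly genes, and the day 0 counts for the transcription factors were 9 and 1.

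Class II molecules present antigen on specialised immune cells. Of 10 such genes listed, 3 were tested: H2-DMa, H2-DMb1 and Cd74. H2-Aa, H2-Eb1 and H2-Ob had 0 counts in every library, and Ciita, the class II counterpart of Nlrc5, had 28 counts in all. H2-DMa was at 5.57 and 5.48 CPM in control and at 5.56 and 3.52 CPM in labelled cells at days 0 and 7. H2-DMb1 had 237 counts in all. Cd74, the class II invariant chain, was detected in every group, with 9.77 ± 1.76 CPM in control cells against 70.7 ± 14.6 CPM in labelled cells at day 0 (log2 2.86, edgeR adjusted p = 1.1e-06) and with 4.51 ± 0.309 against 3.07 ± 0.549 CPM at day 7 (-0.56, adjusted p = 0.0354). Labelled day 0 replicate 1 was the lowest of its group for Cd74, at 53.9 CPM, unlike for the 10 genes.

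LSD1 peaks were compared with the starts of the 10 genes. A peak lay within 1 kb of the start of 2 genes in control at day 0 (B2m and Tap2), beside 22.7% of 13069 tested genes with a position, and of 5 genes in control at day 7 (B2m, H2-K1, H2-D1, Tapbp and Psmb10), beside 59.2%. In labelled cells it was 8 at day 0 (all but Tap2 and Nlrc5), beside 70.7%, and 9 at day 7 (all but Psmb8), beside 80.2%. The lists held 3024, 8303, 13997 and 27221 peaks in that order, and the counts of the 10 genes were near the background in each. With 1 sample per list and no depth given there is no test.

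B2m had a peak in all 4 lists, with the authors' peak scores of 52.35 and 434.41 in control at days 0 and 7 and of 1459.13 and 1000.97 in labelled cells. These cover its start and the promoter printed above. Tapbp and Psmb10 had peaks in 3 lists, with scores of 141.93 and 165.5 in control at day 7, of 655.06 and 530.29 in labelled cells at day 0, and of 732.09 and 921.47 at day 7. Of the heavy chains, H2-D1 was at 146.06, 279.65 and 541.8 in the same lists, and H2-K1, at 60.86, 110.75 and 246.83, was below Tapbp, Psmb10 and H2-D1 in each. Scores of lists of unlike length show no change in binding. 1 peak spans the shared Tap1 and Psmb9 start region in labelled cells at both days (scores 143.66 and 248.19), and none was listed there in control cells. The Nlrc5 peak in labelled cells at day 7 (score 397.67) ended before the start, at chr8:94470495-94471803. Nrf1 had no peak within 1 kb of any of the 10 starts, beside 11.9% of genes at day 0 and 13.0% at day 7.

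**Figure D5:**
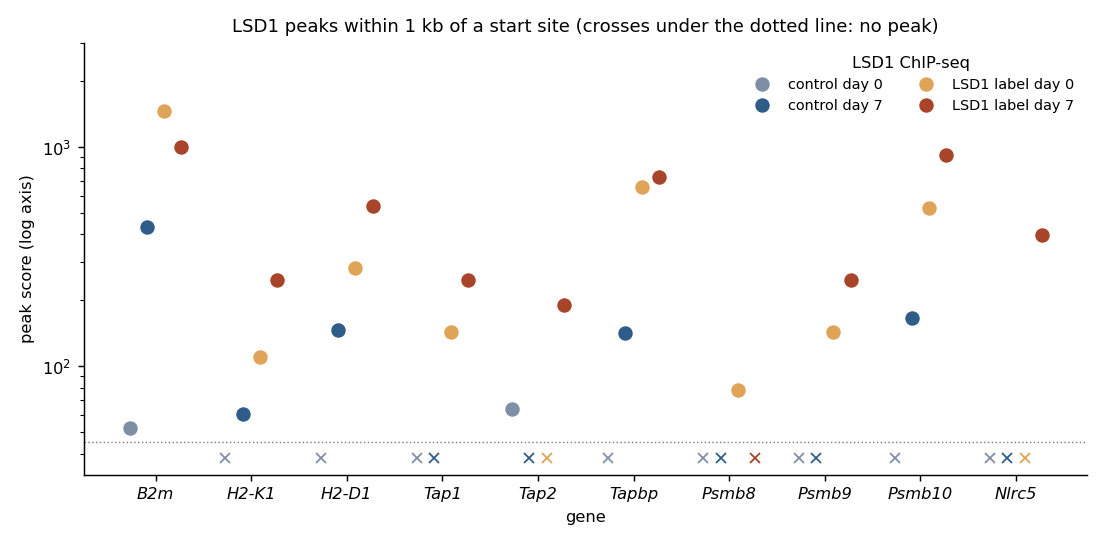
Highest LSD1 peak score (the authors' score, log axis) within 1 kb of each start in the 4 lists, 1 sample each. Crosses under the dotted line mark genes with no peak in a list. B2m has a peak in all 4 lists, and Nlrc5 only in labelled cells at day 7.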

How the data were processed

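The 10 genes and the gene lists were chosen with earlier results of these data known. The authors deposited raw read counts for RefSeq transcripts, 1 file per library. Reads had been mapped to mm10. For RNA-seq the submitters' processing notes name TopHat2, HOMER, edgeR and DESeq 1.8.3, and for ChIP-seq Bowtie2 and MACS 1.41; which tool did which step, and the strand setting, are not given in the sources used here. The authors deposited peak lists with a peak score, for which the cut-off and the input are not given in the sources used here. Of 30521 transcripts, 1200 (0.896% of counts) had no gene name; they stayed in the table as features of their own. The transcript with most reads on average stood for its gene. The test was edgeR 4.0.16 (R 4.3.3): filterByExpr, TMM, a robust quasi-likelihood model with 1 mean for each of the 4 groups, two-sided, Benjamini-Hochberg over 13356 genes at 0.05. It was tested on simulated data. Levels are TMM-scaled CPM. Named genes were the 10, Kdm1a, up to 2 rises and 2 falls per list and comparison among genes passing, and a fixed set of related genes, of which 1 is not reported here. Alternatives were DESeq2 1.42.0, its size factors, no filter, summed transcripts, a replicate block, fits of 2 groups and left-out libraries.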

Additional observations from a re-analysis of the deposited data

Results flagged for a closer look

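For 8 of the 10 genes the difference between labelled and control libraries was not the same at the 2 days, by the interaction term of the edgeR fit, which 51.9% of all tested genes passed. The label difference at day 7 minus that at day 0 was, on the log2 scale, -6.09 for Nlrc5, -5.51 for Psmb9, -4.08 for Psmb8, -3.35 for Tap1, -1.78 for Tap2, -1.59 for H2-K1, -1.41 for Tapbp and -1.17 for B2m. Adjusted p ranged from 4.19e-07 (Nlrc5) to 0.0104 (H2-K1). Without labelled day 0 replicate 1 these values shrank to -5.90, -4.61, -2.80, -2.84, -1.28, -0.89, -0.86 and -0.97, and each still passed, as did 64.7% of all genes.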

How the results depend on the processing

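Of 890 recomputed fold changes of the 10 genes, 845 kept their direction and side of the threshold, 22 lost the call, 15 gained it and 8 changed sign. Of the 890, 600 came from fits with 1 library left out. In many of these the library was from neither group compared, so that the fold change could hardly move. DESeq2, its size factors and summed transcripts altered no call, no filter on low counts added 1 (Tap2 over labelled differentiation, -0.61, adjusted p = 0.0465), and the size factors shifted the median of all genes by at most 0.039 on the log2 scale. Replicate numbers showed no clear pairing: same-numbered libraries correlated at -0.395 to 0.277 in their deviations from group means. Between days the best match had the same number for control replicates 1 and 2 and labelled replicate 2, and another number for the rest. Between labels no best match had the same number. With 3 libraries per group this check cannot exclude pairing. With the replicate block, H2-K1 over labelled differentiation was 0.051 in place of -0.03 and Psmb8 lost its call there (-1.24, adjusted p = 0.0849), with no other call changed among the 10 genes. Fits of only the 2 groups compared gave 2 genes lower in control differentiation, in place of 0, and 1862 genes passing between labels at day 0, in place of 3449. With 1 library left out at a time, genes lower in control differentiation numbered 0 to 2, genes higher in labelled differentiation 0 to 3, genes positive in the interaction 0 to 1, and all genes passing between labels at day 0 from 2172 (without control day 0 replicate 3) to 6565 (without labelled day 0 replicate 1). Over labelled differentiation H2-K1 then ranged from -0.32 to 0.67 and Psmb10 from -0.11 to 0.68. Between labels at day 0 Tap2 ranged from -0.056 to 0.65, Psmb10 from -0.21 to 0.58, and the Psmb10 share from -0.101 to 5.27 percentage points. Peaks at or above the median score of their list left 0 genes with an LSD1 peak in control and 4 in labelled cells at day 0, beside 12.1% and 45.7% of all genes. Where no cause is named, the cause was not tested. Psmb8 and Psmb9 rest on few reads, and 3 libraries per group limit every test.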

Other observations

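The class I gene H2-Q7 varied widely between replicates, with 28, 11 and 238 counts in control at day 7, 80, 10 and 45 in labelled at day 7, and 27, 3 and 3 in labelled at day 0. It was picked out after its values were seen. The inhibitory ligand Cd274 (PD-L1) was higher in labelled than control libraries at both days (log2 2.34 and 0.79, edgeR adjusted p = 9.44e-05 and 0.0201). Without labelled day 0 replicate 1 its day 0 value was 2.44. In its list of 4 tested ligands of lymphocytes, 2 were higher and none lower at day 0 (background 12.8% and 13%). At day 7, 2 were higher and 2 lower (background 30.2% and 33.4%), the lower ones being Ulbp1 (-2.70) and H60b (-1.64).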
